A study of Mus musculus with 12 samples.

Results

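The AP-1 and BATF factors are 10 of the 24346 gene symbols measured in RNA of lung group 2 innate lymphoid cells (ILC2s): *Fos*, *Fosb*, *Fosl1* and *Fosl2* of the FOS family, *Jun*, *Junb* and *Jund* of the JUN family, *Batf* and *Batf3* of the BATF family, and *Atf3*. The 12 libraries fall into 4 groups of 3: WT mice given PBS, 6DKO mice given PBS, WT mice given IL-33 and 6DKO mice given IL-33. 6DKO stands for whole-body *Sema6d* deficiency. The strain is C57BL/6 in the labels and C57BL/6J in the study's methods, which give an age of 7 to 12 weeks, and PBS or IL-33 was given intranasally for 3 days. The labels give an IL-33 dose of 50 ng and the methods a higher one. The methods define the sorted cell as positive for CD45, Thy1.2 and the IL-33 receptor ST2 and negative for lineage markers. Among these are F4/80 of macrophages, NK1.1 of NK cells and an Fc receptor, written there as FcγRIα with antibody clone MAR-1. Nothing in the labels says whether the 3 libraries of a group came from separate mice, so p-values measure the spread between these libraries, which may be technical.

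AP-1 is a dimer of basic leucine zipper proteins. JUN proteins pair with each other, with FOS proteins or with ATF proteins, whereas FOS proteins need a JUN partner to bind DNA. BATF and BATF3 lack a transactivation domain, pair with JUN proteins, and bind composite DNA sites together with IRF4 or IRF8 in lymphocytes. *Fos*, *Fosb*, *Jun*, *Junb* and *Atf3* are immediate early or stress-induced genes, whose RNA is short-lived and can rise within minutes of a stimulus, including enzymatic tissue dissociation and sorting.

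Values are FPKM, counts of fragments scaled for exon length and for the mapped fragments of a library. Log2 fold changes are differences of mean log2(FPKM + 1), and adding 1 shrinks them where FPKM is low. Values given as times lower or higher are ratios of mean FPKM, without the added 1. A gene is called where its limma p, adjusted over the 11432 genes tested, is under 0.05. An unadjusted p under 0.05 was reached by 2020 of these genes between IL-33 and PBS in WT, 1748 in 6DKO, and 1484 between the genotypes under PBS. An exact permutation test of 3 libraries against 3 cannot give a two-sided p below 0.10.

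The PBS libraries stood apart from the IL-33 libraries before any member was considered. Each of the 6 PBS libraries had 7696 to 9287 genes above 1 FPKM, and each of the 6 IL-33 libraries 9917 to 10081. Values of 0 were more frequent under PBS, where they took 169 to 641 of the 3617 genes whose mean lay between 5 and 20 FPKM, than under IL-33, where they took 25 to 50. Genes had a median SD of log2(FPKM + 1) of 0.66 in WT PBS and 0.70 in 6DKO PBS, against 0.29 in WT IL-33 and 0.28 in 6DKO IL-33. Relative depth, read from the spacing of low FPKM values, was 0.739 to 0.998 of that of WT IL-33 replicate 3 in the PBS libraries and 0.968 to 1.39 in the others, while absolute depth is unknown. The part of these library differences in the results below was not tested.

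*Sema6d* itself was measured at 27.5, 46.1 and 37.5 FPKM in WT given PBS, while 6DKO given PBS read 29.0, 22.9 and 19.8. Under IL-33 the values were 19.7, 35.5 and 28.7 in WT and 15.4, 13.6 and 13.8 in 6DKO. Transcript of the targeted gene was thus detected in every 6DKO library. The genotypes overlapped under PBS and did not under IL-33, and the difference was not called in either condition (log2 fold change −0.60, adjusted p = 0.460 under PBS and −0.89, adjusted p = 1 under IL-33). Which part of the gene the allele removes was not examined here.

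*Fos* encodes the founding FOS protein. It read 4169, 3204 and 3997 FPKM in the WT PBS libraries, 2527, 1935 and 2336 in 6DKO PBS, 1287, 1239 and 934 in WT IL-33, and 1219, 1276 and 1242 in 6DKO IL-33. All WT PBS libraries lay above all 6DKO PBS libraries, which in turn lay above all 6 IL-33 libraries, and the IL-33 groups overlapped. With IL-33, *Fos* was 3.29 times lower in WT (log2 fold change −1.72, SE 0.15, adjusted p = 8.54e-05) and 1.82 times lower in 6DKO (−0.85, SE 0.15, adjusted p = 0.0103). The WT call held in all 22 alternative settings. The 6DKO call was lost without 6DKO IL-33 replicate 1 (−0.84, adjusted p = 0.0515) and without a variance trend (adjusted p = 0.131), within a range of 0.00845 to 0.131 over the alternatives. In bulk RNA such as this, fewer cells of an expressing kind and less RNA per cell cannot be told apart.

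*Fosb*, a further immediate early FOS gene, read 144, 93.9 and 123 FPKM in WT PBS, 132, 64.3 and 113 in 6DKO PBS, 33.5, 52.7 and 51.8 in WT IL-33, and 45.7, 36.9 and 54.3 in 6DKO IL-33. The 6 PBS libraries all exceeded the 6 IL-33 libraries and the genotypes overlapped in both conditions. The log2 fold change with IL-33 was −1.37 in WT (SE 0.31, adjusted p = 0.0270) and −1.11 in 6DKO (SE 0.31, adjusted p = 0.0878), the second not called. The WT call was lost when WT PBS replicate 1 or 3, or any single WT IL-33 library, was left out (adjusted p from 0.0584 to 0.120), and without a variance trend (0.0650). In 6DKO the reverse happened without PBS replicate 2, with a log2 fold change of −1.42 and an adjusted p of 0.0228.

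*Fosl2*, which encodes FRA-2, read 77.9, 74.2 and 61.6 FPKM in WT PBS, 92.0, 94.3 and 95.6 in 6DKO PBS, 39.4, 67.4 and 57.6 in WT IL-33, and 48.4, 61.6 and 61.6 in 6DKO IL-33. The 3 6DKO PBS libraries were the highest of the 12, and they were the most tightly grouped, whereas the WT groups overlapped. No comparison of *Fosl2* was called, the log2 fold change with IL-33 being −0.40 in WT and −0.71 in 6DKO (adjusted p = 0.424 and 0.146). Averaged over genotypes it was −0.56 (adjusted p = 0.0560), and was called with no filter (0.0452), without WT PBS replicate 3 (−0.61, adjusted p = 0.0442) or without WT IL-33 replicate 2 (−0.64, adjusted p = 0.0474). *Fosl1*, which encodes FRA-1, stayed between 0.528 and 8.995 FPKM in the 12 libraries, with overlap in every comparison and none called, although quantile normalization moved its average over genotypes from −0.58 (adjusted p = 0.481) to −1.28, which was called (adjusted p = 0.0423).

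In the JUN family, *Jun* encodes the strongest transactivator. It read 769, 657 and 927 FPKM in WT PBS, 494, 348 and 381 in 6DKO PBS, 276, 253 and 257 in WT IL-33, and 252, 221 and 191 in 6DKO IL-33. None of the 4 groups overlapped another, and the order from high to low was WT PBS, 6DKO PBS, WT IL-33 and 6DKO IL-33. *Jun* was 2.99 times lower with IL-33 in WT (log2 fold change −1.56, SE 0.17, adjusted p = 0.000552) and 1.84 times lower in 6DKO (−0.87, SE 0.17, adjusted p = 0.0213). The WT call held in all 22 alternatives. The 6DKO call was lost without 6DKO PBS replicate 1 (−0.73, adjusted p = 0.0512), without 6DKO IL-33 replicate 2 (−0.88, adjusted p = 0.0762) and without 6DKO IL-33 replicate 3 (−0.77, adjusted p = 0.10), and also with array weights (−0.78, adjusted p = 0.0628), with only the 6DKO groups fitted (0.0711) and without a variance trend (0.134).

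*Junb*, whose product can restrain JUN at some promoters and drives cytokine genes in type 2 helper T cells, read 3219.7, 3197 and 3374 FPKM in WT PBS and 3567, 2539 and 2999 in 6DKO PBS. Under IL-33 it read 2359, 2232 and 1804 in WT and 2079, 2233 and 1963 in 6DKO. Every PBS library exceeded every IL-33 library, and the genotypes overlapped in both conditions. Its log2 fold change was the smallest of the JUN family, −0.62 in WT (SE 0.13, adjusted p = 0.0207) and −0.52 in 6DKO (SE 0.13, adjusted p = 0.0579, not called). Leaving out WT PBS replicate 1, WT IL-33 replicate 2 or WT IL-33 replicate 3 ended the WT call, with log2 fold changes of −0.63, −0.66 and −0.51 and adjusted p-values of 0.0555, 0.0593 and 0.0998, as did fitting only the WT groups (0.0635) or no variance trend (0.222). Without 6DKO PBS replicate 2 the 6DKO difference of −0.65 was called (adjusted p = 0.0250).

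*Jund*, usually the steadily expressed JUN gene, read 352, 261 and 299.5 FPKM in WT PBS, 235, 190.3 and 229.7 in 6DKO PBS, 121, 119.6 and 117 in WT IL-33, and 135, 116 and 113 in 6DKO IL-33. The PBS genotypes did not overlap each other or either IL-33 group. The log2 fold change with IL-33 was −1.33 in WT (SE 0.16, adjusted p = 0.00102), called in all 22 alternatives, and −0.84 in 6DKO (SE 0.16, adjusted p = 0.0180). The 6DKO call was lost without 6DKO IL-33 replicate 2 (−0.81, adjusted p = 0.0758) or replicate 3 (−0.79, adjusted p = 0.0771) and without a variance trend (0.114).

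*Batf* went the other way. It read 1.19, 35.8 and 33.1 FPKM in WT PBS, 73.0, 71.3 and 37.6 in 6DKO PBS, 165, 259 and 213 in WT IL-33, and 264, 233 and 161 in 6DKO IL-33. All 6 IL-33 libraries exceeded all 6 PBS libraries, the 6DKO PBS libraries exceeded the WT PBS libraries, and the genotypes overlapped under IL-33. WT PBS replicate 1 lay far below every other library. The log2 fold change in WT was 3.91 (SE 0.84, adjusted p = 0.0223), and without that library it was 2.57 (adjusted p = 0.00406). The call was lost when any 1 of the WT IL-33 libraries was left out (3.75 to 4.08, adjusted p = 0.0700 to 0.0890) or when only the WT groups were fitted (adjusted p = 0.144). In 6DKO the log2 fold change was 1.87 (SE 0.84, adjusted p = 0.316), not called with all libraries and called without WT PBS replicate 1 (1.87, adjusted p = 0.00972), a library that enters this comparison only through the shared estimate of spread. It was also called when only the 6DKO groups were fitted (adjusted p = 0.0459), among adjusted p-values of 0.00972 to 0.591.

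*Batf3*, known for its part in dendritic cell and memory T cell programs, was listed at 0 in all 6 PBS libraries, at 0, 2.205 and 0 FPKM in WT IL-33 and at 2.38, 4.76 and 7.34 in 6DKO IL-33. Every 6DKO IL-33 library exceeded every other library. The comparison of IL-33 with PBS in 6DKO was called (adjusted p = 0.0247). Since all PBS libraries were at 0 and had no spread, no fold is given and nothing is concluded from this call. That call was lost in 7 of 22 alternatives, among them the omission of 6DKO PBS replicate 1 (adjusted p = 0.0505), 6DKO IL-33 replicate 2 (0.0825) or 6DKO IL-33 replicate 3 (0.0955), within a range of 0.0114 to 0.201. Genes used by every cell were also at 0 in some PBS libraries (*Psmd13* and *Tbp*), so a listed 0 need not mean absence. Of the dendritic cell markers, *Clec9a* was at 0 in all 12 libraries and *Flt3* reached at most 0.213 FPKM. The 7 markers of that list summed to 0.252 to 5.79 FPKM in WT PBS and 6.06 to 20.5 in 6DKO PBS. Under IL-33 the sum was 8.12 to 19.8 FPKM in WT and 16.2 to 17.1 in 6DKO. The part of dendritic cells in the *Batf3* values was not tested.

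*Atf3* encodes a stress-induced factor that pairs with JUN proteins and represses many inflammatory genes. It read 1759, 1205 and 990.1 FPKM in WT PBS, 1096, 786 and 746 in 6DKO PBS, 177, 228 and 269 in WT IL-33, and 253, 338 and 432 in 6DKO IL-33. The genotypes overlapped in both conditions and every PBS library exceeded every IL-33 library. *Atf3* was 5.87 times lower with IL-33 in WT (log2 fold change −2.53, SE 0.26, adjusted p = 0.000336, called in all 22 alternatives) and 2.57 times lower in 6DKO (−1.37, SE 0.26, adjusted p = 0.0168). That 6DKO call was lost in 7 of 22 alternatives: without 6DKO PBS replicate 1 (−1.20, adjusted p = 0.0503), 6DKO IL-33 replicate 1 (−1.17, adjusted p = 0.0777) or 6DKO IL-33 replicate 2 (−1.38, adjusted p = 0.0655), without the PBS library of each genotype that had most zeros (−1.20, adjusted p = 0.0541, a choice made after seeing the data), with only the 6DKO groups fitted (0.0504), with array weights (0.0613) and without a variance trend (0.0635).

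**Figure D1:**
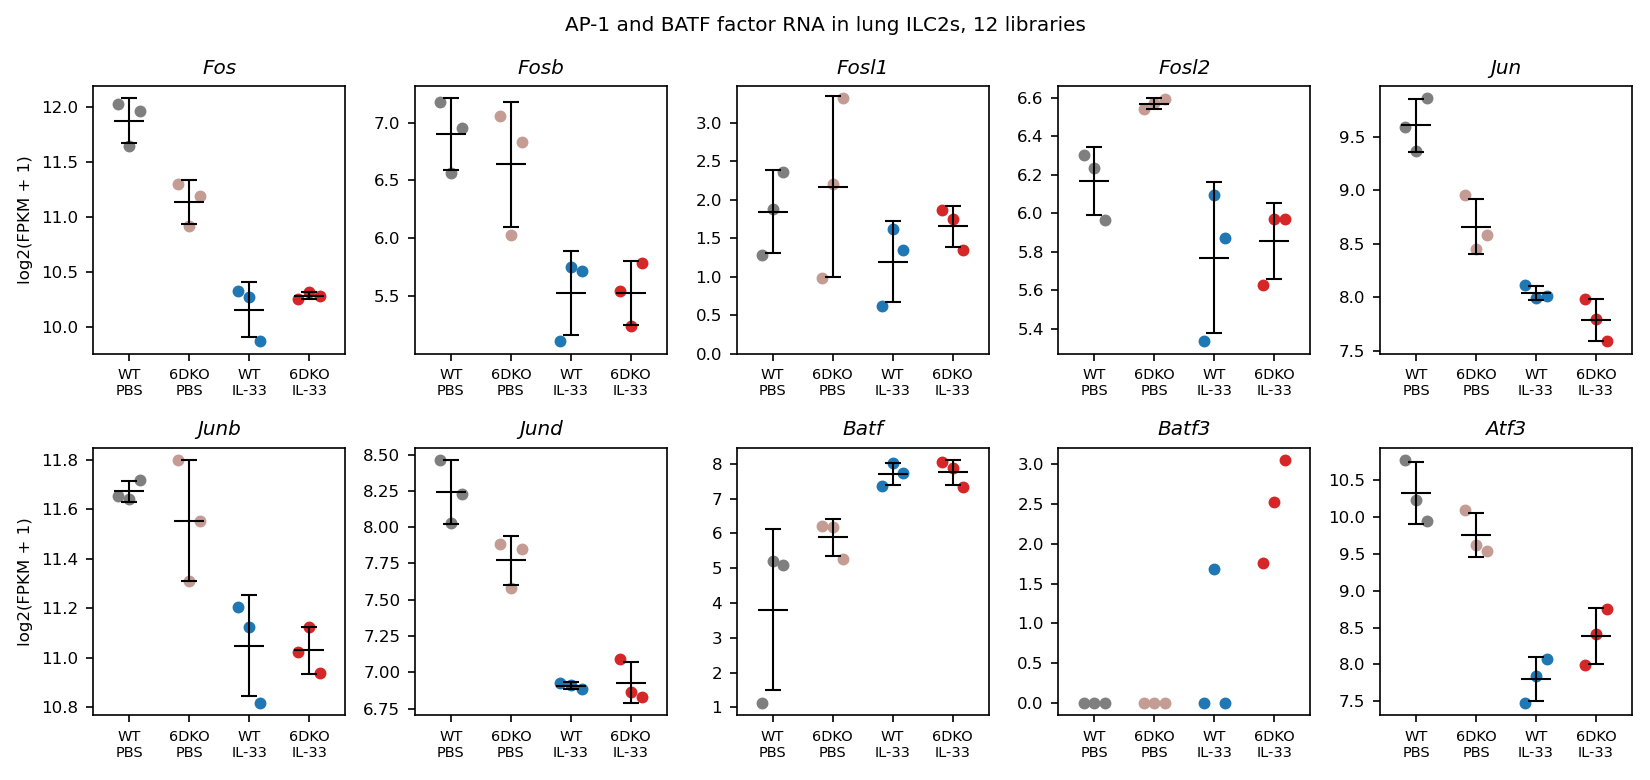
RNA of the 10 AP-1 and BATF factors as log2(FPKM + 1), with 1 panel a gene and its own vertical scale. Colored points are libraries (3 per group), and black bars are the mean and SD of a group, left out for *Batf3* because of its values of 0. *Fos*, *Fosb*, *Jun*, *Junb*, *Jund* and *Atf3* are lower in all 6 IL-33 libraries than in all 6 PBS libraries, and *Batf* is higher.

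Counted together, 6 of the 10 members were called lower with IL-33 in WT, where 1.61% of all genes tested were, and 1 was called higher, against 2.71% of all genes. In 6DKO 4 were called lower and 1 higher, against 1.11% and 1.78% of all genes. The 1 higher was *Batf3*, set against PBS libraries at 0, and is not taken as support. Leaving out 1 library moved the 7 calls in WT to between 4 and 7. It moved the 5 calls in 6DKO to between 1 and 7. The members differed without overlap between PBS and IL-33 in 7 of 10 cases in WT and in 9 of 10 in 6DKO, where 25.0% and 22.6% of all genes did. Averaged over the genotypes, 6 members were called lower and 2 higher, against 3.10% and 5.81% of all genes, and *Fosl1* and *Fosl2* were not called. The 2 higher were *Batf* and *Batf3*, the latter again set against PBS libraries at 0. The call of *Junb* was lost without a variance trend (adjusted p = 0.0742), and that of *Batf3* with quantile normalization (0.0825) or array weights (0.137). For the 6 lower members and for *Batf*, the exact permutation of treatment within genotype gave p = 0.005, the smallest that its 400 assignments allow, and for *Batf3* p = 0.050. The median log2 fold change of the 10 members was −0.99 in WT and −0.78 in 6DKO, beside 0.16 and 0.14 for all genes. Quantile normalization moved the median of all genes to −0.05 in WT and −0.02 in 6DKO and turned the direction of no treatment difference among the members.

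Summed over the 10 members, the level was 10494, 8731 and 9809.9 FPKM in WT PBS, 8218, 6033 and 6947 in 6DKO PBS, 4458, 4455 and 3704 in WT IL-33, and 4302, 4523 and 4227 in 6DKO IL-33. These sums did not overlap between WT PBS, 6DKO PBS and the IL-33 groups. The makeup of the sum changed as well. *Junb* held 30.7% to 43.4% of it in the PBS libraries and 46.4% to 52.9% in the IL-33 libraries, *Fos* 30.8% to 40.7% and 25.2% to 29.4%, and the BATF family 0.0113% to 1.18% and 3.70% to 6.19%, all without overlap. The BATF family share of 0.0113% was that of WT PBS replicate 1 alone, and the next lowest was 0.337%. *Atf3* held 10.1% to 16.8% and 3.97% to 10.2%, which overlap. The ratio of *Fos* to *Batf* FPKM was 3509, 89.6 and 121 in WT PBS and 34.6, 27.1 and 62.1 in 6DKO PBS, and lay between 4.38 and 7.80 in the 6 IL-33 libraries.

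**Figure D2:**
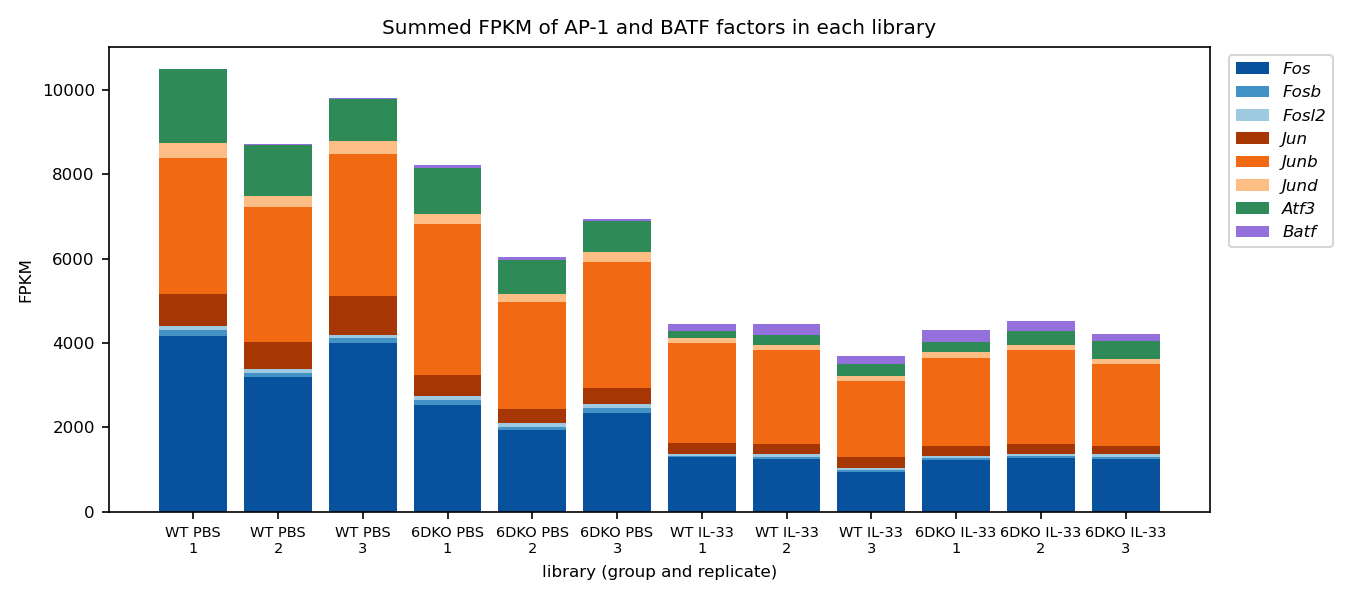
Stacked FPKM of 8 of the 10 factors in each of the 12 libraries, with *Fosl1* and *Batf3* left out because both stay at or below 8.995 FPKM. Total height falls from the WT PBS to the 6DKO PBS to the IL-33 libraries, and the *Batf* segment at the top is visible mainly under IL-33.

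In order of mean FPKM, *Fos* (3790.1 ± 514, SD, n = 3) and *Junb* (3264 ± 96.1) led in WT PBS and overlapped, followed without overlap by *Atf3*, *Jun*, *Jund*, *Fosb* and *Fosl2*, then *Batf*, which overlapped *Fosl1*, and *Batf3*. The overlap of *Batf* with *Fosl1* came from WT PBS replicate 1 alone, where *Batf* read 1.19 FPKM. In 6DKO PBS *Junb* (3035 ± 515) was above *Fos* (2266 ± 302) in all libraries. Under IL-33 *Junb* (2131 ± 291 in WT, 2092 ± 136 in 6DKO) was above *Fos* in both genotypes (1153 ± 192 and 1246 ± 28.3). *Batf* had moved up to the level of *Jun*, with 212 ± 47.2 beside 262 ± 12.2 FPKM in WT and 219 ± 52.8 beside 221 ± 30.4 in 6DKO, so that *Batf* overlapped *Jun* and also *Atf3* in both genotypes. Among the 11432 genes tested, *Batf* ranked between 1445 and 8141 by FPKM in the PBS libraries and between 453 and 690 in the IL-33 libraries. The rank of 8141 was that of WT PBS replicate 1, and the other PBS libraries ranked it between 1445 and 2687.

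The genotypes were compared within each treatment to ask whether the factors differ between mice labeled WT and 6DKO. As given above, *Sema6d* transcript was detected in every 6DKO library. Under PBS 1 of the 10 members was called, *Jun*, at 1.92 times lower in 6DKO (log2 fold change −0.94, SE 0.17, adjusted p = 0.0369), where 0.595% of all genes were called. That call held in only 6 of 22 alternatives. It was lost on leaving out any of 10 of the 12 libraries, at −0.95 to −0.82 and adjusted p-values up to 0.0787, the exceptions being WT PBS replicate 2 and 6DKO PBS replicate 1, and an estimate from the PBS groups alone gave an adjusted p of 0.729. *Fos* was 1.67 times lower in 6DKO without overlap (−0.74, SE 0.15, adjusted p = 0.0530), just outside the threshold, and called without WT PBS replicate 2 (−0.86, adjusted p = 0.0357) or 6DKO PBS replicate 1 (−0.82, adjusted p = 0.0392), without those PBS libraries with most zeros (−0.94, adjusted p = 0.0227) and with the filter at 2 FPKM (0.0443). Groups did not overlap for 5 members under PBS, *Fos*, *Jun* and *Jund* being lower in 6DKO and *Fosl2* and *Batf* higher, where 8.60% of all genes did not overlap. *Batf* showed a log2 difference of 2.08 (SE 0.84, adjusted p = 0.328), which was 0.74 without WT PBS replicate 1 (adjusted p = 0.354). Of the other members, *Jund* differed by −0.47 (adjusted p = 0.275), *Atf3* by −0.57 (adjusted p = 0.383), *Fosb* by −0.26 and *Junb* by −0.12.

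Under IL-33 limma called none of the members (0 of 10) between the genotypes, where 0.00875% of all genes, 1 gene, were called. At an unadjusted p under 0.05 there were 2, *Batf3* and *Atf3*, both higher in 6DKO, and 214 of all 11432 genes. The count over all genes was 1096 with array weights and 1051 with only the IL-33 groups fitted. *Batf3* was above 0 in 3 of 3 6DKO libraries and 1 of 3 WT libraries, and its adjusted p was 1. *Atf3* was 1.52 times higher in 6DKO with overlap (log2 fold change 0.59, SE 0.26, adjusted p = 1, exact permutation p = 0.20). The groups did not overlap for *Batf3* and *Jun* only, 2 of 10, where 14.2% of all genes did not, so this count is near the background. The 95% intervals of the log2 difference were −0.20 to 0.45 for *Fos*, −0.31 to 0.27 for *Junb*, −0.33 to 0.38 for *Jund* and −1.79 to 1.87 for *Batf*. These intervals use a spread pooled over all 4 groups, and for *Batf* the SD of log2(FPKM + 1) was 2.32 in WT PBS, outside this comparison, against 0.33 and 0.37 in the WT and 6DKO IL-33 groups.

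Whether IL-33 acted differently in the genotypes was tested as an interaction, the log2 fold change in 6DKO minus that in WT. None of the 10 members was called (0.0175% of all genes, 2 genes, were), and 4 had an unadjusted limma p under 0.05, as did 639 of all 11432 genes. The 4 were *Fos* (0.87, SE 0.21, adjusted p = 0.442), *Jun* (0.69, SE 0.25, adjusted p = 0.844), *Atf3* (1.16, SE 0.37, adjusted p = 0.750) and *Batf3*. By exact permutation of genotype within treatment, p was 0.040 for *Fos*, 0.020 for *Atf3*, 0.050 for *Jund* and 0.16 for *Jun*, unadjusted for the 10 members. This permutation takes the genotypes as equal in both treatments. A genotype difference under PBS alone can thus lower its p, and it cannot decide whether the responses differ. The response to IL-33 was therefore not shown to differ between the genotypes for any member after adjustment, although the calls differed, and both responses rest on separate PBS groups with unequal starting levels.

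**Figure D3:**
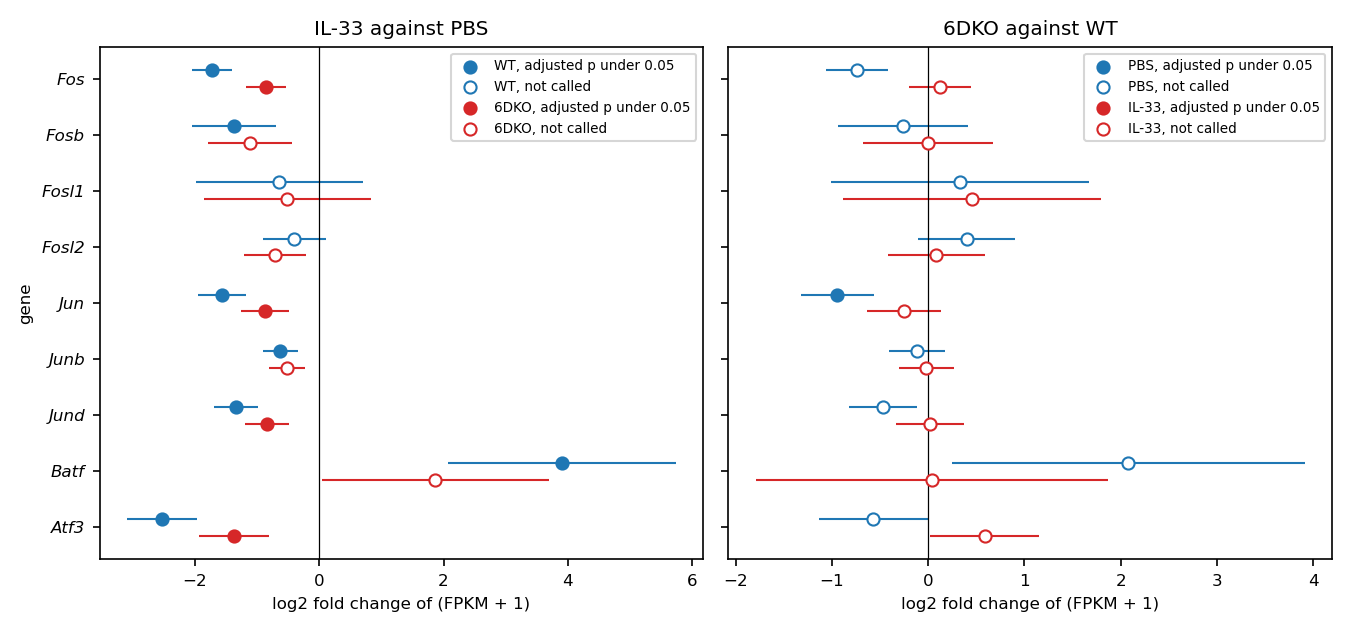
Log2 fold change of (FPKM + 1) for 9 factors, with *Batf3* left out because its PBS libraries are at 0. The left panel shows IL-33 against PBS in WT (blue) and 6DKO (red), and the right panel 6DKO against WT under PBS (blue) and IL-33 (red). Bars are 95% limma intervals and filled points are called. In the left panel all points except those of *Batf* lie below 0, and in the right panel *Jun* under PBS is the only filled point.

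The members sit in pairs on some chromosomes (GENCODE annotation of GRCm38, the mm10 build that the files use). *Fos* (chr12:85473890-85477273, plus strand) and *Batf* (chr12:85686669-85709087, plus strand) are 209 kb apart, with 1 protein-coding gene between, *Jdp2*, itself a basic leucine zipper repressor of AP-1. *Fos* fell and *Batf* rose with IL-33 in WT, while limma did not call *Jdp2*, at −0.74 in WT (adjusted p = 0.426) and 0.91 in 6DKO (adjusted p = 0.340). *Batf3* (chr1:191097847-191108945, plus strand) and *Atf3* (chr1:191170296-191218039, minus strand) are 61.4 kb apart and were likewise called in opposite directions in 6DKO, for *Batf3* against PBS values of 0. The 1 protein-coding gene between them, *Fam71a*, was called lower averaged over genotypes (−1.87, adjusted p = 0.0263). *Jun* lies at chr4:95049034-95052222, *Jund* at chr8:70698949-70700616 and *Junb* at chr8:84974484-84978718. Exons of *Junb* overlap those of *Prdx2* on the opposite strand, those of *Fosl1* overlap *Ccdc85b*, and those of *Jun* and *Jund* overlap the antisense genes *Junos* and *Gm11175*. The methods name a stranded kit and the labels a different kit, and whether the counting used strand is not given in either, so it is open whether reads of such partners were kept apart. *Prdx2* averaged 206 FPKM in WT PBS and 339 in WT IL-33, opposite in direction to *Junb* and not called (log2 fold change 0.73, adjusted p = 0.0692).

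*Fos*, *Fosb*, *Jun*, *Junb*, *Jund* and *Atf3* were lower together in all IL-33 libraries. For *Fos*, *Jun* and *Junb* the 120 bases before the RefSeq transcription starts are shown (GRCm38.p6, each 5′ to 3′ on the strand of its gene, free of annotated exons). The windows of *Fosb* and *Atf3* held 6 and 7 exon bases, and that of *Jund*, free of exons too, is not printed. Capitals mark TGACG, the core letters of the cAMP response element, on either strand. The windows are chr12:85473770-85473889 (plus) for *Fos*, chr4:95052223-95052342 (minus) for *Jun* and chr8:84978749-84978868 (minus) for *Junb*.
Fos: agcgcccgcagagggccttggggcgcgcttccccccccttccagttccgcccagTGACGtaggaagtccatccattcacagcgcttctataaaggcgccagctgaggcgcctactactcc
Jun: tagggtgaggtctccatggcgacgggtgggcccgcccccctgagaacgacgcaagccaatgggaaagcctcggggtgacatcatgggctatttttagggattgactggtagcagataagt
Junb: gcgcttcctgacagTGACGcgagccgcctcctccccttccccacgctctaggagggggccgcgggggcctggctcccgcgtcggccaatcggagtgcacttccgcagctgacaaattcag
In *Fos* the match begins 66 bases before the start and in *Junb* 106 bases before it. The *Jun* window holds none, and neither does that of *Jund*. RefSeq promoters were matched for 9 members, and *Fosl1* was not matched. Over the 250 bases before the start, TGACG on either strand occurred in 5 of the 9, *Atf3*, *Batf*, *Fos*, *Fosb* and *Junb*, and in 17.8% of all 32851 promoters. It was thus found in members that fell and in *Batf*, which rose. The AP-1 site TGANTCA and the full element TGACGTCA, which contains TGACG, occurred in 0 of the 9, and in 6.75% and 1.55% of all promoters. The 5-letter motif was chosen after the windows had been seen. A match is a description of letters only.

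Genes with the most similar profile across the 12 libraries were sought for the most abundant member of each family, among 7411 others with a mean of at least 5 FPKM. Since these members differed without overlap between PBS and IL-33, a high Pearson r can report a shared treatment difference, and no p is given. *Fos* was closest to *Jund* (r = 0.978), *Zfp36* (0.964), which encodes an mRNA-destabilizing protein, and *Dusp1* (0.957), a MAP kinase phosphatase. *Atf3* was closest to *Ccnl1* (0.967), *Nfkbiz* (0.961) and *Cd24a* (0.961). *Junb* was closest to *Pnrc1* (0.942), *Aff4* (0.941) and *Aldh2* (0.941). *Batf* was closest to *Lpxn* (0.970), *Slfn2* (0.969) and *Lat2* (0.969). Group means of *Zfp36* ran 1814, 1286, 444 and 601 FPKM in WT PBS, 6DKO PBS, WT IL-33 and 6DKO IL-33, and those of *Lat2* ran 16.4, 32.7, 96.8 and 86.9 in the same order.

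Of 24 other immediate early and dissociation-induced genes 13 were called lower with IL-33 in WT and 10 in 6DKO, where 1.61% and 1.11% of all genes were, and none higher, with a median log2 fold change of −0.87 and −0.72 beside 0.16 and 0.14 for all genes. The list summed to 11013 to 15015 FPKM in the PBS libraries and 5737 to 7353 in the IL-33 libraries. *Dusp1* and *Gadd45b* were the most abundant. *Gadd45b*, a stress-response gene, spanned 2670.1 to 2803 FPKM in WT PBS and 1225 to 1342 in WT IL-33 (log2 fold change −1.06, adjusted p = 0.000328). The largest WT decreases were those of *Egr3* (−2.75, adjusted p = 0.0116), *Zfp36* (−2.04, adjusted p = 0.000494), *Nr4a2* (−1.84, adjusted p = 0.00625), *Ppp1r15a* (−1.51, adjusted p = 0.000346), *Egr1* (−1.37, adjusted p = 0.00451) and *Ier2* (−1.37, adjusted p = 8.54e-05). In 6DKO they were those of *Egr3* (−3.29, adjusted p = 0.00647), *Nr4a2* (−1.76), *Egr1* (−1.60), *Ppp1r15a* (−1.47), *Nr4a1* (−1.40) and *Nr4a3* (−1.29, adjusted p = 0.00803). *Dusp1* spanned 2651 to 3809.6 FPKM in WT PBS and 1414 to 1682 in WT IL-33 (−1.08, adjusted p = 0.00394), and was not called in 6DKO (−0.34, adjusted p = 0.364). Between the genotypes limma called 0 genes of the list, with 1 at an unadjusted p under 0.05 under IL-33 and 5 under PBS, where 214 and 1484 of all 11432 genes were. Time from tissue to lysate is not given in the sources used here, and the part of cell handling in these differences was not tested.

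Of 26 other basic leucine zipper genes 25 were tested. In WT 1 was called lower, in 6DKO 1 lower and 1 higher, and averaged over genotypes 3 lower and 1 higher, where 1.61%, 1.11% and 1.78%, and 3.10% and 5.81% of all genes were. The median log2 fold change was 0.03 in WT and −0.19 in 6DKO, beside 0.16 and 0.14 for all genes. *Cebpb*, a partner of AP-1 proteins in inflammatory gene control, spanned 311 to 476 FPKM in WT PBS and 63.3 to 93.8 in WT IL-33 without overlap (−2.20, SE 0.25, adjusted p = 0.000702), and its 6DKO value was −1.66 (adjusted p = 0.00572). *Nfil3*, a factor needed for innate lymphoid cell development, was called higher in 6DKO (1.101, SE 0.24, adjusted p = 0.0318). *Crem*, the most abundant, spanned 280 to 607 FPKM in PBS libraries and 226 to 389 in IL-33 libraries and was not called. Averaged over genotypes, *Bach2* (−1.22, adjusted p = 0.0362) and *Cebpd* (−1.70, adjusted p = 0.0387) were called lower too.

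Upstream of AP-1, 29 genes of the route from the IL-33 receptor to the MAP kinases and their nuclear targets were tested, and limma called 0 of them in WT, in 6DKO or between the genotypes (at an unadjusted p under 0.05 there were 4 in WT, 4 in 6DKO, 0 between genotypes under IL-33 and 2 under PBS). In the same order, 2020, 1748, 214 and 1484 of all 11432 genes had such a p. Of all genes, 2.71% were called higher and 1.61% lower in WT, and 1.78% and 1.11% in 6DKO. Between genotypes 0.00875% were called under IL-33 and 0.595% under PBS. The median log2 fold change was −0.03 in WT and −0.15 in 6DKO, beside 0.16 and 0.14 for all genes. *Il1rl1*, which encodes the receptor ST2, spanned 117 to 186 FPKM in WT PBS and 165 to 209 in WT IL-33 with overlap, and *Map3k8* spanned 149 to 293 and 127 to 168. Averaged over genotypes *Mapk11*, encoding p38β, was called lower (−1.76, SE 0.40, adjusted p = 0.0184).

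Of 9 genes for factors that share composite sites with AP-1, *Irf4*, the partner of BATF, was the 1 called. It was called higher in 6DKO and averaged over genotypes, where 1.78% and 5.81% of all genes were. *Irf4* spanned 9.46 to 11.9 FPKM in WT PBS, 1.2 to 9.79 in 6DKO PBS, 27.0 to 59.0 in WT IL-33 and 42.4 to 46.2 in 6DKO IL-33. All IL-33 libraries exceeded all PBS libraries, as for *Batf*, with a log2 fold change of 3.45 in 6DKO (SE 0.53, adjusted p = 0.00572) and 2.66 averaged over genotypes (SE 0.37, adjusted p = 0.000985). In WT the groups did not overlap either, at 1.88 (SE 0.53, adjusted p = 0.0740), which was not called. *Gata3* (295 to 690 FPKM over the libraries) and *Ets1* (173 to 302), the most abundant of the list, were not called, and the median log2 fold change was −0.22 in WT and −0.06 in 6DKO.

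Of 18 textbook AP-1 target genes, 4 were called lower in WT and none higher, and in 6DKO 4 lower and 1 higher, where 1.61% of all genes were lower in WT, and 1.11% lower and 1.78% higher in 6DKO. The median log2 fold change was 0.01 in WT and −0.11 in 6DKO, beside 0.16 and 0.14 for all genes. Of the 18 genes, 5 to 8 were at 0 in each PBS library and 3 to 6 in each IL-33 library, which draws this median toward 0. *Il2* spanned 318 to 633 FPKM in WT PBS and 42.6 to 66.5 in WT IL-33 (−2.93, SE 0.27, adjusted p = 0.000174) and it fell in 6DKO as well (−2.44, adjusted p = 0.000843), as did *Csf2* (−1.23, adjusted p = 0.00168) and *Lif* (−2.44, adjusted p = 0.000390). *Csf2*, encoding GM-CSF, spanned 2341 to 3466 and 1041 to 1416 FPKM in the same WT groups (−1.20, adjusted p = 0.00141). *Lif* (−2.23, adjusted p = 0.000432) and *Plaur* (−2.64, adjusted p = 0.00393) were the others lower in WT. *Il5* was called lower in 6DKO (−1.11, adjusted p = 0.0465) and *Cd44*, an adhesion receptor, higher (0.74, adjusted p = 0.0438). *Il6* was between 0 and 40.1 FPKM in the PBS libraries and between 83.8 and 175 in the IL-33 libraries, and was called higher averaged over genotypes (adjusted p = 0.0182). Averaged over genotypes 5 targets were called lower and 2 higher, where 3.10% and 5.81% of all genes were. The list summed to 4092 to 5448 FPKM in the PBS libraries and 1994 to 2734 in the IL-33 libraries, without overlap.

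Housekeeping genes were not all steady. In WT 3 of 10 were called higher, where 2.71% of all genes were. These were *Hprt* (1.06, adjusted p = 0.0107), *Actb* (0.60, adjusted p = 0.0262) and *B2m* (0.47, adjusted p = 0.0210). In 6DKO limma called 0 of 10 (2 at an unadjusted p under 0.05, as were 1748 of all 11432 genes), with *Hprt* also called higher in 6DKO than in WT under PBS (1.23, adjusted p = 0.0225). *B2m* and *Eef1a1* were the most abundant, and the median log2 fold change of the list was 0.16 in WT and 0.09 in 6DKO.

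The markers of the sorted cell were present throughout. All 12 ILC2 markers were above 0 in every library and their sum spanned 5883 to 9369 FPKM, with *Id2* and *Areg* the most abundant. Under IL-33 *Il2ra* was called lower in both genotypes (−2.16, adjusted p = 0.000680 in WT, −1.57 in 6DKO) and *Klrg1* higher in WT (1.19, adjusted p = 0.0329), while *Areg*, *Icos* and *Il5* were called lower averaged over genotypes (−0.52, −0.53 and −0.81).

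Markers of other cells were mostly low. The 7 T cell markers in the files summed to 189.7 to 483 FPKM over the libraries, and *Cd3g* alone to 189.7 to 479.8, with *Cd3e* at 9.81 or less and *Cd4* at 0 throughout. *Ms4a1* and *Pax5* of B cells, *Prg2* and *Epx* of eosinophils, *S100a8* and *S100a9* of neutrophils, *Clec9a* of dendritic cells, and *Mcpt8* and *Mcpt4* of basophils and mast cells were at 0 in all 12 libraries. The highest sum in any library was 20.5 FPKM for 7 dendritic cell markers (led by *Xcr1* and *Zbtb46*), 1.99 for 4 eosinophil markers (*Ccr3*), 12.9 for 5 neutrophil markers (*Cxcr2*), 26.9 for 5 B cell markers (*Cd79b*), 23.1 for 5 endothelial markers (*Cldn5* and *Pecam1*) and 4.51 for 6 mesenchymal markers. *Cd79b* was called higher with IL-33 in WT (adjusted p = 0.0234). It was at 0.139 FPKM or less in the WT PBS libraries, so no fold is given.

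*Ccr2* and *Cpa3*, listed as markers of monocytes and of mast cells, were lower with IL-33. The 10 macrophage and monocyte markers summed to 307, 379 and 360.3 FPKM in WT PBS, 335, 468 and 321 in 6DKO PBS, 94.02, 113 and 86.1 in WT IL-33, and 161, 119.6 and 159 in 6DKO IL-33. *Ccr2* was the most abundant of them in every library and was called lower with IL-33 in both genotypes (−1.83, adjusted p = 0.000358 in WT and −1.55, adjusted p = 0.00155 in 6DKO), while *Csf1r* stayed at or below 0.0718 FPKM. The median log2 fold change of the 10 was 0 in WT and −0.77 in 6DKO, with 4 to 7 of them listed at 0 in each library, and 4 had an unadjusted limma p under 0.05 in 6DKO, 2 lower and 2 higher. Such a p was reached in 6DKO by 1748 of all 11432 genes. *Cd68* was called higher in 6DKO (2.08, adjusted p = 0.0247), at no more than 4.87 FPKM. The 5 mast cell and basophil markers summed to 63.2 to 88.6 FPKM in WT PBS, 42.9 to 89.3 in 6DKO PBS, 17.8 to 32.0 in WT IL-33 and 17.8 to 41.9 in 6DKO IL-33, nearly all from *Cpa3*, which was called lower in WT (−1.54, adjusted p = 0.0378). The 6 epithelial markers summed to 23.1 to 64.2 FPKM in the PBS libraries and 4.26 to 101 in the IL-33 libraries, with *Epcam* called lower in 6DKO (−3.73, adjusted p = 0.0187). The sum of 101 was that of 6DKO IL-33 replicate 3, with *Sftpc* at 97.2, and the other IL-33 libraries summed to 4.26 to 23.8. The part of these cells in the differences of the AP-1 and BATF factors was not tested.

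The library of 6DKO PBS replicate 2 stood out. Its NK cell markers summed to 756.3 FPKM with all 5 above 0, led by *Gzma* at 653, against 0 to 40.2 in the other 11 libraries. It also held the highest macrophage list sum, 468 FPKM, with *Lyz2* at 112. Its dendritic cell, endothelial and mesenchymal sums, 20.5, 23.1 and 4.51 FPKM, were the highest of the 12 libraries. Its ILC2 marker sum, 5883 FPKM, was the lowest. The *Fos*, *Fosb*, *Jun*, *Junb* and *Jund* values of this library were the lowest of the 6 PBS libraries, and the part of other cells in them was not tested. Without it 7 of the 10 members were called between IL-33 and PBS in 6DKO in place of 5, and none in place of 1 between genotypes under PBS.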

How the data were processed

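The values are FPKM as the authors deposited them, 1 table per library, taken without change. The labels name TopHat2 2.1.1 and Cuffdiff 2.2.1 with SMART-Seq HT and Nextera libraries, whereas the study's methods name TopHat 2.0.13, Bowtie2 2.2.3, SAMtools 0.1.19 and Cuffnorm 2.2.1 with TruSeq Stranded mRNA libraries and 75-base reads, and no value shows which applies. The annotation behind the FPKM and any use of strand in the counting are not given in the sources used here.

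Genes tested were the 11432 with a mean of at least 0.5 FPKM over the 12 libraries or a place in a gene list and a value above 0. limma 3.58.1 in R 4.3.3 fitted 4 group means to log2(FPKM + 1) with a variance trend and 8 residual degrees of freedom. Two-sided p-values were adjusted by Benjamini-Hochberg over all genes tested in each of 6 comparisons, and called means an adjusted p under 0.05. Exact permutation tests, two-sided, exchanged libraries between groups (20 assignments) or within each genotype or treatment (400 assignments). Tables and figures used Python 3.11.15 with numpy 2.4.6, pandas 2.3.3, scipy 1.17.1 and matplotlib 3.10.9.

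Named genes are the 10 members, *Sema6d*, the called genes of each list (up to 6 a list and comparison, by size of change), up to 2 of the most abundant of each list, genes between or overlapping the members on the chromosome, and the 3 genes most like the leading member of each family among those with a mean of at least 5 FPKM. Defining markers at 0 or low levels (among them *Csf1r*, *Flt3* and *Cd3e*), *Psmd13* and *Tbp* as genes of every cell with values of 0, and single genes of 6DKO PBS replicate 2, were named after their values were seen. The members and lists were chosen with earlier results of these data known.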

Additional observations from a re-analysis of the deposited data

Results flagged for a closer look

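The interaction of genotype and treatment for *Fos* was 0.87 on the log2 scale, the response to IL-33 in 6DKO (−0.85) minus that in WT (−1.72). It is given here because an exact permutation of genotype labels within each treatment gave p = 0.040 over 400 assignments, whose smallest possible p is 0.005, while the adjusted p of limma was 0.442. That permutation takes the genotypes as equal in both treatments, so it cannot decide whether the responses differ. The log2 difference of 6DKO from WT was −0.74 under PBS and 0.13 under IL-33.

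The same interaction for *Atf3* was 1.16, from −1.37 in 6DKO and −2.53 in WT. Its exact permutation p was 0.020, with the same limit, and the adjusted p of limma was 0.750. For *Atf3* the log2 difference of 6DKO from WT was −0.57 under PBS and 0.59 under IL-33. The 2 permutation p-values are unadjusted for the 10 members.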

How the results depend on the processing

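Over 1300 refitted log2 fold changes of the members, 1207 kept the side of the threshold with no change of sign scored, 59 lost the call, 12 gained it and 22 changed sign, none of them a called value. *Fosb* between genotypes under IL-33 is within the 1207, since its main value was 0.000 and gave no direction to change, and it ran from −0.208 to 0.142. The same holds for *Batf3* between genotypes under PBS, which ran from −0.033 to 0. Members called between IL-33 and PBS in WT (7) ranged from 4 to 7 when 1 library was left out and were 5 without a variance trend or with only the WT groups. In 6DKO (5) they were 1 without a variance trend, 2 with array weights, 4 with the filter at 2 FPKM, quantile normalization or only the 6DKO groups, 3 without the PBS library of each genotype that had most zeros, an alternative chosen after seeing the data, and 1 to 7 when 1 library was left out. Between genotypes under PBS (1) they were 0 with no filter, quantile normalization, no trend, array weights, replicate block or only the PBS groups, 2 with the filter raised to 2 FPKM or without those PBS libraries, and 0 to 2 when 1 library was left out. Averaged over genotypes (8) they ranged from 7 to 9, and under IL-33 between genotypes and for the interaction they were 0 throughout. The cause was not tested.

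Sign changes came with leaving out 1 library, with these ranges. For IL-33 against PBS in 6DKO, *Fosl1* ran from −1.11 to 0.061. Between genotypes under IL-33, *Fos* ran from −0.02 to 0.21, *Fosl2* from −0.13 to 0.25, *Junb* from −0.135 to 0.058 (0.11 with quantile normalization), *Jund* from −0.059 to 0.069 and *Batf* from −0.13 to 0.25. Under PBS, *Fosb* ran from −0.47 to 0.044, *Fosl1* from −0.25 to 0.92 and *Junb* from −0.24 to 0.004. For the interaction, *Fosb* ran from −0.044 to 0.47, *Junb* from −0.023 to 0.22, and *Fosl1* from −0.47 to 0.71, with −0.10 under array weights and −0.48 without those PBS libraries.

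Of all genes, 494 were called in WT (209 to 691 leaving out 1 library, 852 without those PBS libraries), 331 in 6DKO (139 to 494, 505, and 220 with array weights or 222 with the replicate block), 68 between genotypes under PBS (20 to 207, 222, and 33 with no filter, 36 with quantile normalization, 15 with the block, 1 with array weights or only the PBS groups) and 1 under IL-33 (0 to 3, 5, and 57 with array weights, 2 with a pseudocount of 0.1, 0 with quantile normalization or only those groups). Averaged, 1018 were called (669 to 1248, 1446), and for the interaction 2 (0 to 28, 36, 5 with the pseudocount, 7 with no trend, 1 with the block). Quantile normalization changed the split of higher and lower genes from 310 and 184 to 250 and 233 in WT, from 204 and 127 to 137 and 137 in 6DKO, and from 664 and 354 to 522 and 509 averaged. Libraries of the same number did not pair (r from −0.047 to 0.045), so the block rests on no pairing seen in the values. Absolute depth is unknown, so no limit is given for a value of 0.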
